A study of Homo sapiens with 12 samples.

Results

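The expression of 10 genes of the SNARE family, among them VAMP3, was followed in MDA-MB-231 cells given mimics of miR-183-5p or of its shifted forms. MDA-MB-231 is an established cell line from a human triple-negative breast tumour. The 10 genes are VAMP2, VAMP3, VAMP4, VAMP7, VAMP8, STX3, STX4, STX7, SNAP23 and VTI1B, taken by gene symbol from 22411 genes named on the arrays. All 10 were among the 14940 genes tested, whose mean log2 signal over all arrays lay above 4.54. The set was chosen by the low VAMP3 signal with the plus2 mimic against control, and the other 9 genes are relatives of VAMP3 or partners in vesicle fusion. Comparisons of plus2 with the other mimics reuse the plus2 arrays of that choice, and comparisons of the other mimics with control reuse its control arrays. P-values and counts given in either kind of comparison for the other 9 genes carry that limit.

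RNA was hybridised to 12 arrays, 3 for each of 4 groups. The groups were cells transfected for 48 h at 50 nM with the miR-183-5p mimic that has the reference ends (called the archetype), with the isomiR whose ends are both moved by -2 nucleotides (minus2), with the isomiR whose ends are both moved by 2 nucleotides (plus2), or with the oligonucleotide Negative Control #1 (control). In 1 place the series description gives the ends of minus2 as 2 and -2. The labels give -2 for both, and they were followed together with the sequence they print. An isomiR is a form of a microRNA with shifted ends. All groups received an oligonucleotide with the transfection reagent Lipofectamine RNAiMAX, so no group was untransfected, and the study used 1 cell line, 1 concentration and 1 time. The labels do not say whether replicate arrays stand for separate cultures, and p-values then reflect only the spread among these samples, which may be technical.

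SNARE proteins are small membrane-anchored proteins that pull a vesicle and its target membrane together. An R-SNARE, usually a VAMP on the vesicle, zips into a bundle with Q-SNAREs, usually syntaxins and SNAP proteins on the target, and the bundle is later taken apart by the ATPase NSF. VAMP3, also called cellubrevin, serves recycling endosomes, which return receptors such as the transferrin receptor and integrins to the cell surface.

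The mimics differ in the seed, bases 2 to 8 from the 5′ end, with which a microRNA pairs to its targets. They are printed 5′ to 3′ with the seed in capitals because the seed is what the shift changes. The isomiR sequences are those of the labels, and the archetype is the RefSeq mature sequence (GRCh38.p14, chr7:129774967-129774988, minus strand) with U written as T.
minus2: tGTATGGCactggtagaattca
archetype: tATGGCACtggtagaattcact
plus2: tGGCACTGgtagaattcactgt
Each form is 22 nt long, minus2 and plus2 share 18 nt, and no 2 of the 3 seeds are the same. A messenger would pair with a seed through its reverse complement, which is GCCATAC for minus2, GTGCCAT for the archetype and CAGTGCC for plus2. Messenger sequences were not used here, so whether any SNARE messenger carries these letters was not examined.

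Replicate arrays of a group correlated across tested genes with Pearson's r between 0.997 and 0.999, where genes are not independent replicates, and no pair of arrays was identical. Of 8 markers of mesenchymal breast lines 7 lay above the filter on low signals, among them VIM at a mean log2 signal of 13.69 and CD44 at 14.19, whereas TWIST1 did not. The receptors ESR1 (4.18) and PGR (3.76), the white blood cell marker PTPRC (4.14) and the fibroblast marker PDGFRA (3.91) lay below it. Above the filter were 4 of 9 luminal markers, with KRT19 at 12.65, 4 of the 7 white blood cell markers on the array and 2 of 7 fibroblast markers. These white blood cell markers lay low, from 4.67 (CD3E) to 5.26 (CSF1R), as did the fibroblast markers PDGFRB (5.22) and COL1A1 (5.45). The filter of 4.54 itself lay below the array medians of 4.73 to 4.80, so calls of these markers are calls of low signals. Summed white blood cell markers spanned log2 signals of 7.41 to 7.44 with the archetype, 7.45 to 7.52 with minus2, 7.51 to 7.58 with plus2 and 7.45 to 7.51 in control. Summed fibroblast markers spanned 7.33 to 7.45, 7.41 to 7.42, 7.49 to 7.54 and 7.34 to 7.42 in the same order of groups. Summed luminal markers spanned 12.53 to 12.55, 12.74 to 12.78, 12.60 to 12.79 and 12.70 to 12.85, and mesenchymal markers 16.40 to 16.49, 16.31 to 16.31, 16.15 to 16.21 and 16.43 to 16.45, again in that order. Sums were taken over linear signals, so the strongest marker leads them. The luminal sum is in effect KRT19, which was lower with the archetype (-0.27) while the other tested luminal markers were higher. AXL (15.44) leads the mesenchymal sum. With plus2 all 7 tested mesenchymal markers passed the threshold against control, 6 lower and 1 higher, and 3 of 4 luminal markers were higher. CDH1, the epithelial cadherin, was higher with plus2 by 1.14 ± 0.08 (SE) and with the archetype by 0.42 ± 0.08. Its signals were low, at 4.92 in control, 5.34 with the archetype and 6.05 with plus2, where the filter lay at 4.54. The collagen cross-linking enzyme LOX was lower with the archetype (-1.64 ± 0.08), minus2 (-1.03 ± 0.08) and plus2 (-1.31 ± 0.08). The mesenchymal marker CDH2 went the other way and was higher with the archetype (0.28), minus2 (0.40) and plus2 (0.53, each ± 0.06). Its signals were low too, at 4.99 in control and 5.52 with plus2. AXL was higher with the archetype (0.26 ± 0.04) and lower with plus2 (-0.15 ± 0.04). CDH1, LOX, CDH2 and AXL were given differences after their values were seen. With the archetype 2 mesenchymal markers were higher and 3 lower, and 3 luminal markers were higher and 1 lower, while with minus2 1 mesenchymal marker was higher, 3 were lower and no luminal marker passed. Of the 4 white blood cell markers tested, 1 was lower with the archetype, 1 was higher and 1 lower with minus2, and 2 were higher with plus2. Of 2 fibroblast markers 1 was higher with plus2 and none passed with the other mimics. RMA signals have no true zero, so no marker was at 0, and the part of these markers in the results was not tested. All groups are of the same cell line. In bulk RNA from it, fewer cells carrying a marker and less of its RNA per cell cannot be told apart.

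VAMP3 had the widest spread between groups of the 10 genes. Its log2 signal was 12.56, 12.63 and 12.70 with the archetype, 13.35, 13.35 and 13.36 with minus2, 10.69, 10.82 and 10.72 with plus2, and 13.12, 13.15 and 13.02 in control. The 4 groups did not overlap and ran in the order minus2, control, archetype, plus2 from high to low, with the plus2 arrays far below all others.

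The plus2 mean of 10.74 ± 0.07 (SD, n = 3) lay below the control mean of 13.10 ± 0.07 by a log2 difference of -2.35 ± 0.05 (SE), a signal of 19.6% of control on the linear scale. This was the lowest difference of 14940 genes, and it is the value for which VAMP3 was chosen, so it is given as a description with no test. Plus2 also lay below the archetype (difference -1.89 ± 0.05) and below minus2 (-2.61 ± 0.05), again the lowest difference of all genes in each of these comparisons. They use the same plus2 arrays and are likewise descriptions.

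With the other mimics VAMP3 differed from control by less, and in opposite directions. The archetype mean of 12.63 ± 0.07 (SD) was lower than control by 0.46 (difference -0.46, 95% interval -0.58 to -0.35), and the minus2 mean of 13.35 ± 0.0064 was higher by 0.26 (interval 0.14 to 0.37). Both use the control arrays of the comparison that chose the gene, so no test is given. The difference of minus2 from the archetype is taken over arrays of neither plus2 nor control, although its error uses the spread of all 12 arrays. VAMP3 was 0.72 ± 0.05 higher with minus2, a 1.65-fold difference, with an adjusted p of 1.7e-06 by limma, and 94th from the top among 14940 genes. Fitted on the 6 arrays of these groups alone, the adjusted p was 7e-05.

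**Figure D1:**
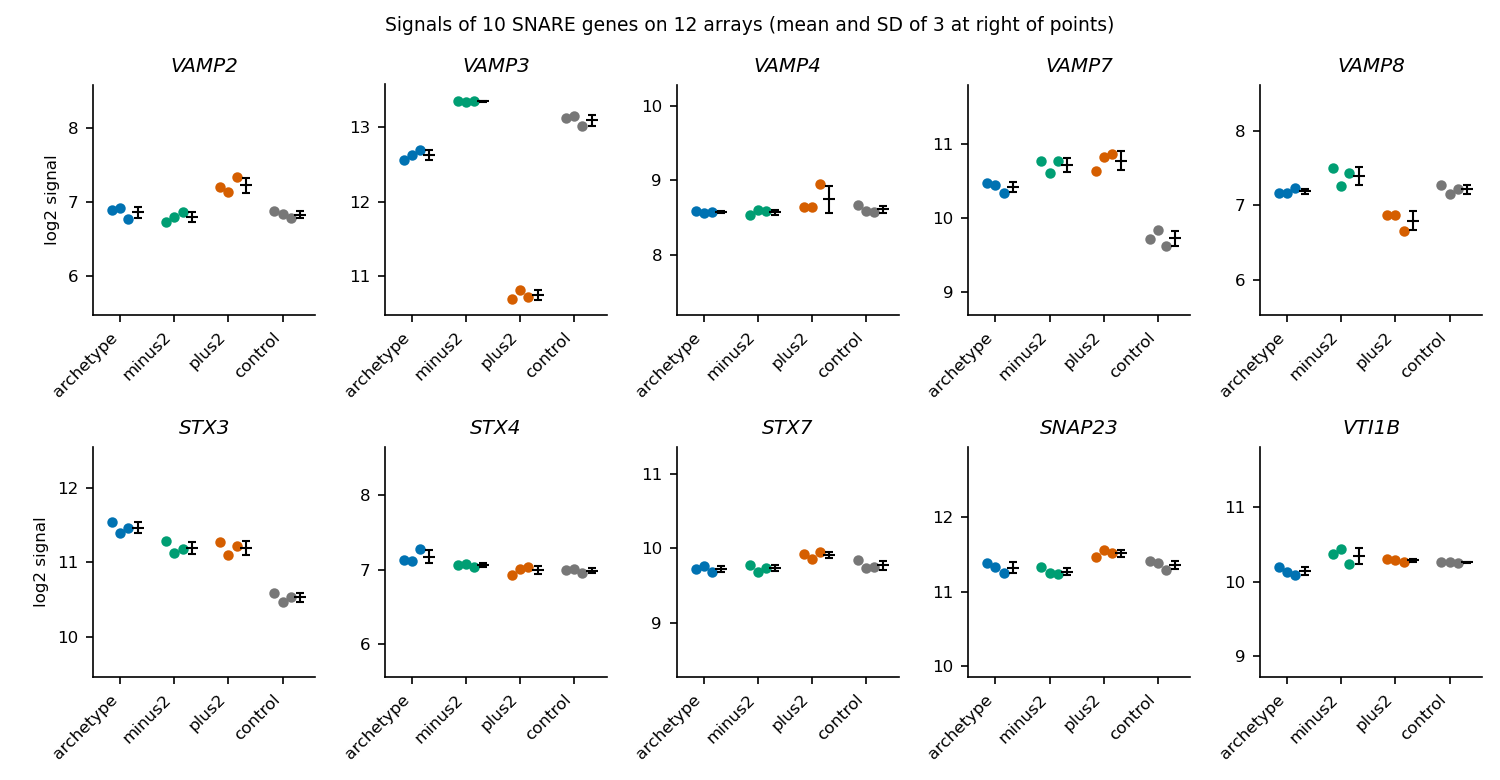
Log2 signal (vertical axis) of each of the 10 SNARE genes on the 3 arrays of each group (points), with the mean and SD of the 3 beside them; every panel spans the same height in log2 units, and the axis does not start at 0. VAMP3 drops with plus2 to between 10.69 and 10.82, and VAMP7 and STX3 lie higher with all mimics than in control.

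VAMP7 was higher with every mimic than in control. It encodes an R-SNARE of late endosomes and lysosomes that also serves lysosome exocytosis, and unlike VAMP2 and VAMP3 it resists cleavage by tetanus toxin. Its log2 signal was 10.47, 10.44 and 10.34 with the archetype, 10.76, 10.61 and 10.77 with minus2, 10.63, 10.82 and 10.86 with plus2, and 9.71, 9.84 and 9.63 in control. All 9 mimic arrays lay above all 3 control arrays.

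VAMP7 rose by 0.69 ± 0.07 (SE) with the archetype (adjusted p = 4.1e-05) and by 0.99 ± 0.07 with minus2, a 1.98-fold rise (adjusted p = 2.3e-06). With plus2 the difference from control was 1.04 ± 0.07, or 2.06-fold. Genes with a higher difference than VAMP7 made up 0.857% of those tested in the archetype comparison, 0.194% in that of minus2 and 0.382% in that of plus2.

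Between mimics, VAMP7 was higher with plus2 than with the archetype by 0.35 ± 0.07 (adjusted p = 0.0041) and was also higher with minus2 (0.30 ± 0.07 above the archetype, adjusted p = 0.013). The call of minus2 against the archetype was lost without archetype replicate 3 (difference 0.26, adjusted p = 0.057), when minus2 replicate 1 was left out (0.27, adjusted p = 0.052) and when minus2 replicate 3 was (0.27, adjusted p = 0.053). Plus2 and minus2 did not differ beyond their spread (0.06, 95% interval -0.11 to 0.22). VAMP7 has 2 transcript clusters on the array, named for chromosomes X and Y, on which the gene has identical copies, so they cannot be read as separate genes. The other cluster gave differences from control of 0.72, 1.02 and 1.05 for the archetype, minus2 and plus2.

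VAMP2, the closest relative of VAMP3 and the R-SNARE of synaptic vesicles in neurons, was higher with plus2 than in each of the other groups. It gave log2 signals of 6.90, 6.91 and 6.77 with the archetype, 6.73, 6.79 and 6.86 with minus2, 7.20, 7.14 and 7.33 with plus2, and 6.87, 6.84 and 6.78 in control. The plus2 arrays lay above all others, whereas the other 3 groups overlapped.

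VAMP2 was higher with plus2 than with the archetype by 0.36 ± 0.06 (adjusted p = 0.00086) and than with minus2 by 0.43 ± 0.06 (adjusted p = 0.00014). Against control the plus2 difference was 0.39 ± 0.06, opposite in sign to that of VAMP3 on the same arrays. With the archetype (0.03, 95% interval -0.10 to 0.16) and with minus2 (-0.04, interval -0.17 to 0.10) VAMP2 did not pass the threshold against control.

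VAMP8, or endobrevin, an R-SNARE of endosomes, secretory granules and autophagosomes, was lowest with plus2. Its log2 signal was 7.17, 7.17 and 7.23 with the archetype, 7.50, 7.27 and 7.44 with minus2, 6.87, 6.87 and 6.65 with plus2, and 7.27, 7.15 and 7.22 in control. The plus2 arrays did not overlap with any other group.

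VAMP8 was lower with plus2 than with minus2 by 0.60 (difference -0.60 ± 0.07, adjusted p = 3.8e-05) and lower than with the archetype (-0.39 ± 0.07, adjusted p = 0.0016), and the difference from control was -0.42 ± 0.07. With minus2 VAMP8 lay 0.19 ± 0.07 above control (adjusted p = 0.075) and 0.21 ± 0.07 above the archetype (adjusted p = 0.051), neither of which passed. Both passed without minus2 replicate 2, with differences of 0.25 and 0.28 and adjusted p of 0.022 and 0.016. Both also passed without plus2 replicate 3, which enters these comparisons only through the shared spread (adjusted p = 0.035 and 0.022).

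VAMP4, an R-SNARE of the trans-Golgi network, was the 1 gene of the set that did not differ among the groups by the moderated F test (adjusted p = 0.17). Its signals were 8.60, 8.56 and 8.57 with the archetype, 8.53, 8.60 and 8.58 with minus2, 8.64, 8.65 and 8.95 with plus2, and 8.67, 8.59 and 8.58 in control. Plus2 replicate 3 stood above the other 11 arrays. The difference of plus2 from minus2 was 0.17 ± 0.07 (adjusted p = 0.078) and passed without plus2 replicate 1 (0.23, adjusted p = 0.038) and without plus2 replicate 2 (0.22, adjusted p = 0.042). The other 8 genes besides VAMP3 passed the F test, as did 51.7% of all genes tested. The F test includes the plus2 and control arrays that chose the set, so this count is a description from which nothing is read.

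STX3 was higher with every mimic than in control. It encodes a Q-SNARE of the plasma membrane, known from the apical surface of epithelial cells. Its log2 signal was 11.55, 11.39 and 11.46 with the archetype, 11.28, 11.13 and 11.17 with minus2, 11.28, 11.09 and 11.22 with plus2, and 10.59, 10.46 and 10.54 in control. As with VAMP7, every mimic array lay above every control array, but here the archetype arrays were the highest.

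STX3 rose by 0.94 ± 0.06 (SE) with the archetype, a 1.91-fold rise (adjusted p = 9.6e-07), and by 0.67 ± 0.06 with minus2, 1.59-fold (adjusted p = 1.3e-05). With plus2 the difference from control was also 0.67 ± 0.06. Minus2 (-0.27 ± 0.06, adjusted p = 0.0084) and plus2 (-0.27 ± 0.06, adjusted p = 0.0074) both lay below the archetype, while plus2 and minus2 differed by 0.0010, with a 95% interval from -0.14 to 0.14. The archetype thus gave the higher signal for STX3 and the lower for VAMP7 when set against either isomiR.

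STX4, a plasma membrane syntaxin that pairs with SNAP23, changed little. Its signals were 7.13, 7.12 and 7.27 with the archetype, 7.06, 7.08 and 7.03 with minus2, 6.93, 7.01 and 7.04 with plus2, and 6.998, 7.01 and 6.95 in control. The archetype arrays lay above those of the other groups, which lay close together. STX4 rose by 0.19 ± 0.05 with the archetype against control (adjusted p = 0.016) and was lower with plus2 than with the archetype (-0.18 ± 0.05, adjusted p = 0.018).

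Both STX4 calls rested on 1 of its 2 transcript clusters, the one with the higher mean signal. The other gave -0.12 ± 0.11 for the archetype against control and 0.02 ± 0.11 for plus2 against the archetype, neither called. The first call was also lost without archetype replicate 3 (0.14, adjusted p = 0.068) and without control replicate 3 (0.17, adjusted p = 0.061), and the second without archetype replicate 3 (-0.13, adjusted p = 0.078) and without plus2 replicate 1 (-0.15, adjusted p = 0.068).

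STX7, a syntaxin of late endosomes, and SNAP23, the widely expressed relative of the neuronal SNAP25, were slightly higher with plus2 than with the other mimics. STX7 gave signals of 9.72, 9.76 and 9.68 with the archetype, 9.77, 9.69 and 9.73 with minus2, 9.92, 9.86 and 9.95 with plus2, and 9.84, 9.73 and 9.75 in control. SNAP23 gave signals of 11.38, 11.34 and 11.24 with the archetype, 11.32, 11.25 and 11.23 with minus2, 11.47, 11.56 and 11.51 with plus2, and 11.41, 11.38 and 11.29 in control. For both genes the plus2 arrays lay above all others and the remaining groups overlapped.

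STX7 was higher with plus2 than with the archetype by 0.19 ± 0.05 (adjusted p = 0.0092) and than with minus2 by 0.18 ± 0.05 (adjusted p = 0.0084). SNAP23 was higher with plus2 than with minus2 by 0.25 ± 0.05 (SE, adjusted p = 0.0022) and than with the archetype by 0.19 ± 0.05 (adjusted p = 0.013), the last lost without archetype replicate 3 (0.16, adjusted p = 0.060). Against control the plus2 differences were smaller, 0.14 ± 0.05 for STX7 and 0.15 ± 0.05 for SNAP23. These were at the edge of the threshold.

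VTI1B, a Q-SNARE of the Golgi and endosomes that joins bundles with STX7 and VAMP8, was lowest with the archetype. Its signals were 10.20, 10.13 and 10.10 with the archetype, 10.37, 10.44 and 10.24 with minus2, 10.30, 10.30 and 10.27 with plus2, and 10.27, 10.27 and 10.25 in control. The archetype arrays lay below those of the other groups, by margins of 0.03 to 0.06 log2 units between nearest arrays.

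With minus2, VTI1B lay 0.21 ± 0.05 above the archetype (adjusted p = 0.013), a call lost when archetype replicate 3 (0.18, adjusted p = 0.056) or minus2 replicate 2 (0.16, adjusted p = 0.055) was left out. Plus2 lay 0.15 ± 0.05 above the archetype (adjusted p = 0.054) and the archetype lay below control by -0.12 ± 0.05 (adjusted p = 0.12), and neither passed. The first of these passed without archetype replicate 1 (0.18, adjusted p = 0.046) and with the replicate block (adjusted p = 0.037). It also passed when minus2 replicate 2 or 3 was left out of the shared spread (adjusted p = 0.039 and 0.026).

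**Figure D2:**
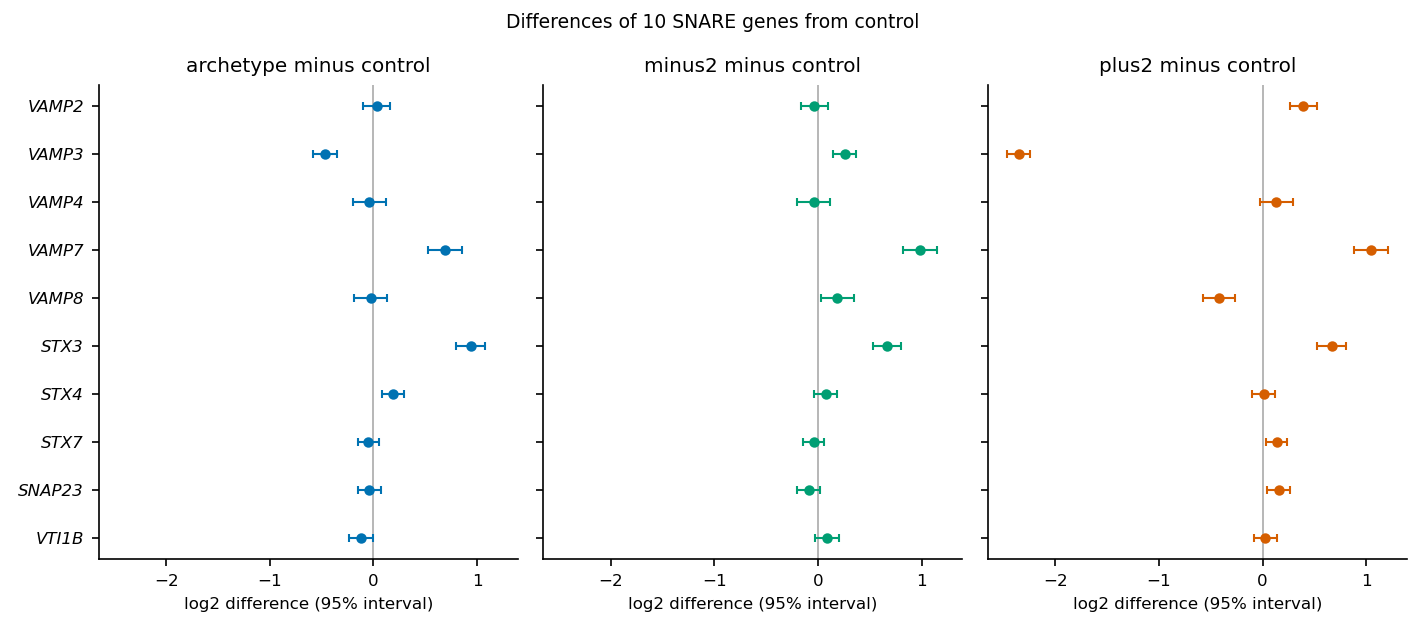
Log2 difference of each mimic from control (horizontal axis) for the 10 SNARE genes, with 95% intervals from limma; points right of 0 are higher with the mimic. VAMP7 and STX3 lie to the right with all mimics, between 0.67 and 1.04, and VAMP3 lies at -0.46 in the archetype panel, 0.26 in the minus2 panel and -2.35 in the plus2 panel.

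VAMP3 is left out of the counts against control and against plus2, since its value there chose the set. Of the other 9 genes, 3 passed the threshold with the archetype against control, all higher (VAMP7, STX3 and STX4), where 24.6% of all genes tested passed (14.3% higher and 10.3% lower). With minus2 2 of 9 passed, both higher (VAMP7 and STX3), where 29.4% of all genes passed (17.5% higher and 11.9% lower). The median difference over these 9 genes was -0.03 with the archetype and 0.07 with minus2, and over all genes tested it was 0.01 in both comparisons.

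With plus2 6 of 9 passed against control, 5 higher (VAMP7, STX3, VAMP2, SNAP23 and STX7) and 1 lower (VAMP8), where 33.6% of all genes passed (17.4% higher and 16.2% lower). The set was drawn up from this comparison, so its count is a description from which nothing is read. The median over the 9 genes was 0.14, against 0.0047 over all genes. SNAP23 fell short without plus2 replicate 2 or 3 or control replicate 2 or 3 (differences of 0.12 to 0.16). STX7 fell short without plus2 replicate 1 or 3, control replicate 2 or 3, archetype replicate 1 or minus2 replicate 3 (0.11 to 0.14).

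Between mimics, 4 of 10 genes differed between minus2 and the archetype, where 24.3% of all genes did (12.4% higher and 11.8% lower with minus2). VAMP3, VAMP7 and VTI1B were higher and STX3 was lower with minus2, and 2 genes were called without archetype replicate 3. Between plus2 and the archetype 7 of the 9 genes besides VAMP3 differed, where 28.9% of all genes did (13% higher and 15.9% lower with plus2). VAMP2, VAMP7, STX7 and SNAP23 were higher and VAMP8, STX3 and STX4 were lower with plus2. Between plus2 and minus2 4 of 9 differed, where 38.7% of all genes did (17.8% higher and 20.9% lower with plus2). VAMP2, SNAP23 and STX7 were higher and VAMP8 lower with plus2. Both comparisons reuse the plus2 arrays that chose the set, so their counts too are descriptions from which nothing is read. The comparisons with control share the control arrays, and those between mimics share arrays with each other, so the counts are not independent of one another.

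The R-SNAREs did not share 1 direction. With plus2, VAMP3 and VAMP8 lay below control and VAMP2 and VAMP7 above it, at -2.35, -0.42, 0.39 and 1.04. VAMP4 lay at 0.13 ± 0.07 and did not pass the threshold. These values come from the comparison that chose the set and are a description. The Q-SNAREs STX3, STX7 and SNAP23 lay above control on the same arrays, at 0.67, 0.14 and 0.15, while STX4 (0.01 ± 0.05) and VTI1B (0.03 ± 0.05) were close to it.

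Other SNARE genes were counted from a list of 29, of which 26 were tested. Against control 4 rose and 4 fell with the archetype, 8 rose and 3 fell with minus2, and 5 rose and 4 fell with plus2. The shares called, 30.8%, 42.3% and 34.6%, stand beside 24.6%, 29.4% and 33.6% of all genes tested. Their median differences were 0.04, 0.10 and 0.03. STX12, a syntaxin of early and recycling endosomes, lay higher with each mimic, averaging 8.59 ± 0.10 (SD) after the archetype, 8.62 ± 0.10 after minus2 and 8.60 ± 0.11 after plus2, against 7.62 ± 0.08 in control (n = 3 each). Its rises were 0.97, 1.00 and 0.99 ± 0.07 (SE), with adjusted p at most 2.8e-06.

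STX10, of the trans-Golgi network, fell with the archetype (-0.63 ± 0.08) and plus2 (-0.52 ± 0.08). STX1A, best known as the neuronal plasma membrane syntaxin, also fell with these mimics (-0.46 ± 0.06 and -0.50 ± 0.06) and with minus2 (-0.23 ± 0.06). SNAP29, which serves autophagosome fusion, rose by 0.37 ± 0.06 with the archetype and by 0.45 ± 0.06 with minus2, and fell with plus2 (-0.27 ± 0.06). STX11, known from cytotoxic lymphocytes, fell with minus2 (-0.38 ± 0.10) and rose by 0.34 ± 0.10 with the archetype. The rise was lost without archetype replicate 1 or 2 and without control replicate 2 or 3 (0.28 to 0.34, adjusted p of 0.057 to 0.089).

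Of 17 tested regulators of SNARE pairing, 1 rose and 2 fell with the archetype, 7 rose and 3 fell with minus2, and 4 rose and 3 fell with plus2, with medians of 0.03, 0.10 and 0.04. The shares called were 17.6%, 58.8% and 41.2%, beside 24.6%, 29.4% and 33.6% of all genes. UNC13B, which primes vesicles for fusion, fell with the archetype (-1.14 ± 0.07) and plus2 (-0.69 ± 0.07). With minus2 its difference was smaller (-0.20 ± 0.07, adjusted p = 0.037), a call lost without any 1 of the minus2 or control replicates or archetype replicate 3 (-0.22 to -0.17, adjusted p of 0.051 to 0.12). VPS33A, which guides SNARE assembly at lysosomes, rose in all 3 comparisons, with differences of 0.54 ± 0.06 for the archetype, 0.26 ± 0.06 for minus2 and 0.45 ± 0.06 in that of plus2, and STXBP4 fell with the archetype (-0.27 ± 0.07) and plus2 (-0.27 ± 0.07).

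NAPG, a SNAP adaptor of NSF in the disassembly of spent SNARE bundles, went opposite ways with the isomiRs, at -0.92 ± 0.04 with minus2 and 0.43 ± 0.04 with plus2. NSF itself rose by 0.46 ± 0.06 with minus2 and by 0.18 ± 0.06 with plus2, the last a call lost in 11 of 20 alternatives, among them the replicate block (adjusted p = 0.054) and the fit without plus2 replicate 1 (0.14, adjusted p = 0.14). With minus2, STXBP5 (tomosyn), which holds syntaxins away from VAMPs, fell (-0.38 ± 0.05).

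Adaptors that carry SNAREs into coated vesicles gave 8 tested genes. With the archetype 1 rose and 3 fell, with minus2 2 rose and none fell, and with plus2 2 rose and 4 fell, with medians of -0.04, 0.07 and -0.12. The shares called were 50%, 25% and 75%, beside 24.6%, 29.4% and 33.6% of all genes. AP3M1, a subunit of the AP-3 adaptor that sorts VAMP7, fell with the archetype (-1.18 ± 0.05) and plus2 (-0.59 ± 0.05) and rose with minus2 (0.28 ± 0.05). The AP-3 subunit AP3D1 rose with the archetype (0.36 ± 0.05), minus2 (0.34 ± 0.05) and plus2 (0.17 ± 0.05), and AP3S1 fell with plus2 (-0.30 ± 0.07). The plus2 rise of AP3D1 was lost without control replicate 2 or 3 (0.15, adjusted p = 0.059 and 0.056).

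PICALM, the clathrin adaptor that retrieves VAMP2, VAMP3 and VAMP8 from the plasma membrane, rose by 0.28 ± 0.05 with plus2 and fell with the archetype (-0.16 ± 0.05). The fall was lost without archetype replicate 2 or 3 and without any 1 of the control replicates (-0.18 to -0.15, adjusted p of 0.053 to 0.1). CLINT1, the adaptor that binds VTI1B, fell with the archetype (-0.19 ± 0.04) and plus2 (-0.18 ± 0.04).

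Recycling endosome genes numbered 19 among those tested. With the archetype 3 rose and 3 fell, with minus2 6 rose and 2 fell, and with plus2 5 rose and 5 fell, with medians of 0.04, 0.08 and -0.0081. The shares called were 31.6%, 42.1% and 52.6%, beside 24.6%, 29.4% and 33.6% of all genes. RAB35, a GTPase of fast recycling, fell with plus2 (-0.93 ± 0.11), as did SNX17, which returns integrins to the surface (-0.65 ± 0.05) and which rose by 0.21 ± 0.05 with minus2. RAB11FIP1, a RAB11 effector, rose with plus2 (0.50 ± 0.07) and with the archetype (0.43 ± 0.07), whereas its relatives RAB11FIP2 and RAB11FIP5 fell with every mimic. The differences of RAB11FIP2 were -0.82, -0.22 and -0.29 ± 0.05 with the archetype, minus2 and plus2, and those of RAB11FIP5 were -0.30, -0.34 and -0.43 ± 0.06.

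TFRC, the transferrin receptor and a classical cargo of VAMP3 vesicles, rose by 0.99 ± 0.10 with minus2 and by 0.33 ± 0.10 with the archetype. With plus2 it did not pass the threshold (-0.15 ± 0.10, adjusted p = 0.27 by limma). The archetype call was lost without any 1 of the archetype replicates and without control replicate 1 or 3 (differences of 0.32 to 0.35, adjusted p of 0.056 to 0.077). RAB35 rose by 0.37 ± 0.11 with minus2, a call lost without minus2 replicate 2 or 3 and without control replicate 2 or 3 (0.33 to 0.38, adjusted p of 0.067 to 0.099).

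The exocyst, which tethers vesicles at the plasma membrane before SNAREs engage, had 9 tested subunits. With the archetype 1 rose and 3 fell, with minus2 1 rose and 3 fell, and with plus2 2 rose and 1 fell, with medians of 0.02, 0.0034 and -0.08. The shares called were 44.4%, 44.4% and 33.3%, beside 24.6%, 29.4% and 33.6% of all genes. EXOC5 fell with minus2 (-1.17 ± 0.08), as did EXOC4 (-0.39 ± 0.05) and EXOC6 (-0.30 ± 0.06).

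With the archetype EXOC8 (-0.47 ± 0.09), EXOC5 (-0.27 ± 0.08) and EXOC6 (-0.26 ± 0.06) fell and EXOC1 rose (0.22 ± 0.06), and with plus2 EXOC8 fell (-0.41 ± 0.09) while EXOC2 (0.37 ± 0.04) and EXOC1 (0.25 ± 0.06) rose. The fall of EXOC5 with the archetype was lost without any 1 of the archetype replicates and without control replicate 1 or 2 (-0.27 to -0.22, adjusted p of 0.055 to 0.094), and the rise of EXOC1 there without any 1 of the archetype replicates and without control replicate 2 or 3 (0.19 to 0.23, adjusted p of 0.053 to 0.097). None of these list counts is a test of the list.

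**Figure D3:**
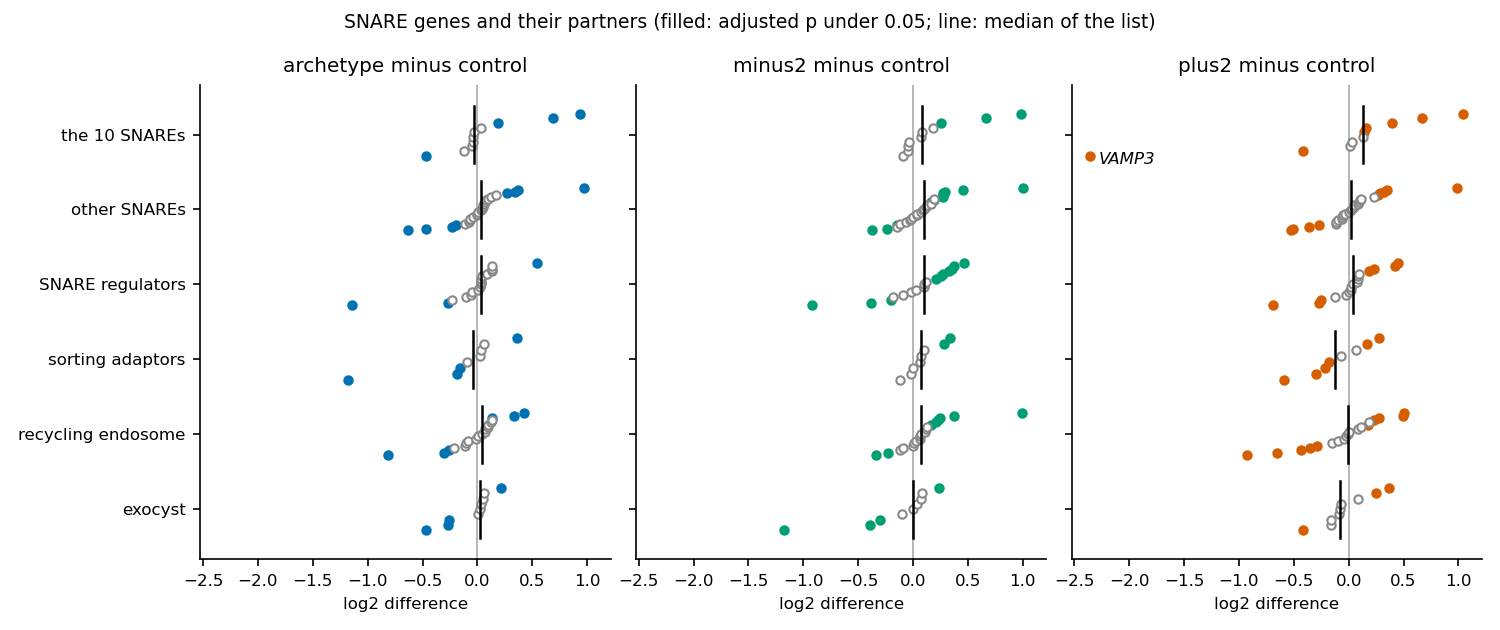
Log2 difference of each mimic from control (horizontal axis) for the 10 SNARE genes and the tested genes of 5 lists of partners, 1 point a gene, filled where the adjusted p was below 0.05, with a line at each list's median. VAMP3 with plus2 lies at -2.35, apart from all other points, and STX12 is the rightmost of the other SNAREs in each panel, between 0.97 and 1.00.

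Across the 12 arrays, the protein-coding genes whose signal was most like that of VAMP3 were SGMS2 (Pearson's r = 0.995), MAVS (0.994), PRDM4 (0.992), TEX2 (0.992) and CORO1C (0.989), among 12216 genes compared. SGMS2 makes sphingomyelin at the plasma membrane, MAVS is the mitochondrial adaptor of RNA sensing, and CORO1C binds actin. None is a SNARE.

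SGMS2 lay at 9.86 ± 0.02 (SD) with the archetype, 10.21 ± 0.02 with minus2, 8.95 ± 0.08 with plus2 and 10.08 ± 0.08 in control. MAVS lay at 9.36 ± 0.03, 9.69 ± 0.06, 8.05 ± 0.03 and 9.51 ± 0.05 in the same groups. Both ran in the same order of group means as VAMP3, with a smaller drop with plus2.

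The genes most opposite to VAMP3 were DNM3 (r = -0.989), SPTBN1 (-0.989) and SORBS2 (-0.988), which were highest with plus2. DNM3, a dynamin, lay at 6.35 ± 0.11 with the archetype, 5.98 ± 0.09 with minus2, 7.28 ± 0.08 with plus2 and 6.02 ± 0.09 in control. These correlations describe 12 arrays in 4 clusters, in which the plus2 arrays stand apart, and no p is given for them.

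**Figure D4:**
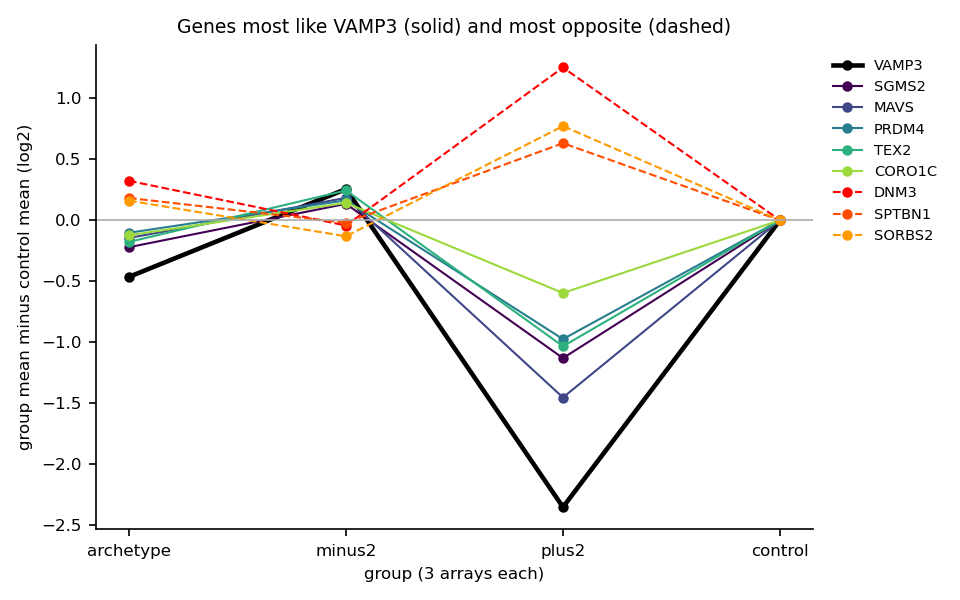
Mean log2 signal of each group minus the control mean (vertical axis; 3 arrays a group, lines only join the groups) for VAMP3, the 5 genes most like it (solid) and the 3 most opposite to it (dashed). VAMP3 lies at -2.35 with plus2, below the 5 like genes, while DNM3, SPTBN1 and SORBS2 lie above 0 there.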

How the data were processed

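The authors deposited a single table with the log2 signal of each feature on each array. The submitters' processing notes name Affymetrix Expression Console 1.4.1 and RMA, with no role or settings. That the scale is log2 was inferred from the values (1.79 to 19.9, array medians 4.73 to 4.80). The genome build behind the array annotation and any batches are not given in the sources used here, so no coordinates of array genes are printed, and those of miR-183-5p are RefSeq's.

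Among 67528 transcript clusters, 23781 had 1 symbol in the platform's annotation, 1543 had several and 42204 had none, and only the first kind was named. A RefSeq gene table updated 306 symbols. For each gene the cluster with the highest mean was used, and the third of genes with the lowest mean was not tested.

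A model of group means was fitted to the 12 arrays (limma 3.58.1 under R 4.3.3, lmFit and eBayes, 8 residual degrees of freedom). P-values were adjusted by the Benjamini-Hochberg method over all 14940 genes of a comparison, with a threshold of 0.05. "Rose", "fell" and "called" mean past it. Errors are SDs of 3 arrays for signals and limma's standard errors for differences. With 3 arrays a group, exact permutation cannot reach a two-sided p below 0.1 and was not used. The fit was also run on simulated data with independent normal noise, a check of the code whose outcome is not reported here. The members and lists were chosen with earlier results of these data known. Named genes were all 10 members, up to 3 called genes with the largest change per list and comparison with control, and the 5 genes most and 3 least correlated with VAMP3. Alternatives were other scalings, filters, fits and left-out arrays.

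Replicate numbers were checked for pairing. Deviations of same-numbered arrays from their group means correlated between -0.045 and 0.269, with 9 of 18 pairs above 0.1. Arrays correlated best with their own number in 28 of 36 cases. A fit with a term for replicate number (the replicate block) called more genes in every comparison. Examples are 3925 in place of 3669 for the archetype against control, and 4564 in place of 4316 for plus2 against the archetype. The check does not settle whether numbers pair arrays. The main fit has no such term because the design states no pairing.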

Additional observations from a re-analysis of the deposited data

How the results depend on the processing

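The counts of SNARE genes called, here over all 10 genes with VAMP3 included, stayed within 1.5 times the reported count under all alternatives run, except that 2 genes in place of 4 were called for minus2 against the archetype without archetype replicate 3. Leaving out 1 array at a time gave 2 to 5 calls there, 3 to 4 for the archetype against control, 3 to 4 for minus2 against control, 5 to 7 for plus2 against control, 6 to 9 for plus2 against the archetype and 5 to 6 for plus2 against minus2. Counts over all genes and over the partner lists also stayed within 1.5 times. The 2 results that turned were those of STX4 with its other transcript cluster, at -0.12 (main 0.19) for the archetype against control and 0.020 (main -0.18) for plus2 against the archetype. Of 1212 differences of the 10 genes recomputed under an alternative, 1162 kept their side of the threshold, 27 lost it, 21 gained it and 2 turned, and 16 of 18 changes of sign were in differences that were called neither before nor after. SNAP23 and STX7 with plus2 against control lost the threshold in 7 and 9 of 20 alternatives. The differences of VAMP3 with plus2 against control lay between -2.39 and -2.31 throughout, those of VAMP7 between 1.00 and 1.11, and those of STX3 with the archetype between 0.90 and 0.97. With the replicate block, the counts were 4, 3 and 7 for the archetype, minus2 and plus2 against control, 4 for minus2 against the archetype, 9 for plus2 against the archetype and 5 for plus2 against minus2. Across the 6 comparisons, arrays correlated best with the array of their own number in 28 of 36 cases, a hint from the data and not the design. Centring the arrays moved the share of higher calls among all genes from 59.5% to 50.2% for minus2 against control. Signal over background and 3 arrays a group limit the precision.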
